A study of Mus musculus with 8 samples.

Results

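The genes described here are 9 genes of glucose production in the liver, 5 that encode enzymes or a carrier (Pck1, G6pc, Fbp1, Pcx and Slc37a4) and 4 that encode regulators (Ppargc1a, Foxo1, Crtc2 and Sik1). They were chosen by name as a list of gluconeogenic genes and stand among 34547 genes with a named transcript in the files. All 9 had enough reads to be tested, among 13678 genes that did. Their RNA was measured in livers of C57BL/6J mice aged 11 to 12 weeks. In 4 mice an adeno-associated virus, a vector that reaches the liver from the blood, carried mouse Nudt7 (Nudt7 livers), and in 4 mice it carried GFP, a fluorescent protein (GFP livers). Each mouse received 2.5e+11 particles in 150 µl by tail vein at 8 weeks of age, and the liver was taken 3 to 4 weeks later after a fast of 24 h. Both groups carried virus and both were fasted, so the data hold no uninjected and no fed liver, and an induction by fasting cannot be measured in them. The sources used here do not give the promoter of the vectors, the sex of the mice or any pairing of the animals. The question of the study was what extra Nudt7, a peroxisomal hydrolase of coenzyme A, changes in RNA levels of the fasted liver.

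Gluconeogenesis builds glucose from lactate, glycerol and amino acids, and keeps blood glucose up when no food is taken. In it, pyruvate carboxylase (Pcx) makes oxaloacetate in mitochondria, cytosolic phosphoenolpyruvate carboxykinase (Pck1) turns oxaloacetate into phosphoenolpyruvate, fructose bisphosphatase (Fbp1) removes a phosphate further along, and the glucose 6-phosphate carrier (Slc37a4) and the catalytic subunit of glucose 6-phosphatase (G6pc) release glucose in the endoplasmic reticulum. Glucagon acts through cAMP on the factor CREB and its coactivator CRTC2 (Crtc2), which turn on Pck1, G6pc and Ppargc1a. Ppargc1a encodes PGC-1α, a coactivator made in fasting, and Foxo1 encodes a factor that drives the same enzyme genes until insulin removes it from the nucleus. Sik1 encodes a kinase that keeps CRTC2 out of the nucleus and is itself turned on by cAMP.

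The libraries held 11187806 to 23640734 estimated reads, and 18362 to 19167 genes had at least 1 read. Nudt7 itself stood at 1301 to 3569 CPM (read counts scaled to library size, with TMM factors) in Nudt7 livers and at 60.7 to 79.9 CPM in GFP livers, so the labels hold in all 8. Summed over markers of hepatocytes (Alb, Ttr, Apoa1, Trf and Serpina1c), levels were 54518 to 87757 CPM in Nudt7 livers, against 66756 to 82986 CPM in GFP livers. Nudt7 replicate 3 stood apart, at 63.1 on the first principal component (36.3% of the variance), with the other 7 libraries between −19.9 and 2.83. In that library, genes in the shortest of 3 equal classes of transcript length lay 0.36 log2 units above their mean over the 8 livers (median), and the longest class lay at −0.31. Markers of red blood cells (globin genes and Alas2, 5 in all) summed to 1813 CPM there and to 303 to 642 CPM in the other 7. Fold changes and list medians below that moved by over 1.5 times without this library are given with and without it.

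None of the 9 genes passed the test between Nudt7 and GFP livers. At an adjusted p under 0.05, 0 of 9 were called by edgeR's quasi-likelihood test, against 0.117% of all genes tested. DESeq2, which called 1.19% of its genes, also called 0 of the 9, and so did limma-voom. Before adjustment, 2 of the 9 had a p under 0.05, Pck1 and Ppargc1a, both lower in Nudt7 livers, where 4.03% of all genes were lower at that p. Both genes were under that p only without Nudt7 replicate 4 or without GFP replicate 4, of the 8 fits that each left out 1 liver. Neither was under it without Nudt7 replicate 2, where Sik1 was, without Nudt7 replicate 3, where Slc37a4 was, or without GFP replicate 1 or GFP replicate 2, where none of the 9 was. Pck1 alone of the pair was under it without Nudt7 replicate 1, where Foxo1 was too, and Ppargc1a alone without GFP replicate 3. Of the 9, 6 had negative and 3 positive log2 fold changes, with a median of −0.22 against −0.00 over all genes tested. That median was −0.20 without Nudt7 replicate 3, −0.09 without GFP replicate 4, and −0.13 when each library's trend with transcript length was removed. For 0 of the 9 did the CPM of the groups stay apart, where this was so for 5.75% of all genes tested. The replicates were taken as separate mice, since each title carries an animal number of its own, and the p values measure the spread between these samples. Replicate numbers were given here in the order in which the samples are listed, and are not the animal numbers.

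The 9 genes covered a wide range of levels, here compared in TPM (transcript abundance scaled to transcript length and library size). In Nudt7 livers the order was Pck1 (1151 ± 433 TPM), Fbp1 (579 ± 49.7), Pcx (274 ± 45.2), G6pc (224 ± 75.0), Slc37a4 (189 ± 34.0), Crtc2 (26.7 ± 6.21), Sik1 (19.3 ± 16.8), Foxo1 (12.7 ± 2.51) and Ppargc1a (3.35 ± 0.858; SD, n = 4). In GFP livers the order was Pck1 (1859 ± 377 TPM), Fbp1 (544 ± 80.1), Pcx (294 ± 37.4), Slc37a4 (267 ± 23.5), G6pc (263.5 ± 49.5), Sik1 (38.0 ± 31.4), Crtc2 (28.3 ± 3.64), Foxo1 (16.0 ± 1.40) and Ppargc1a (5.90 ± 2.88; SD, n = 4). Every enzyme gene lay above every regulator gene in both groups. Neighbours whose means lay within their joined SDs were Pcx, G6pc and Slc37a4 in both groups, Crtc2 and Sik1 in both groups, and Sik1 and Foxo1 in Nudt7 livers.

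**Figure D1:**
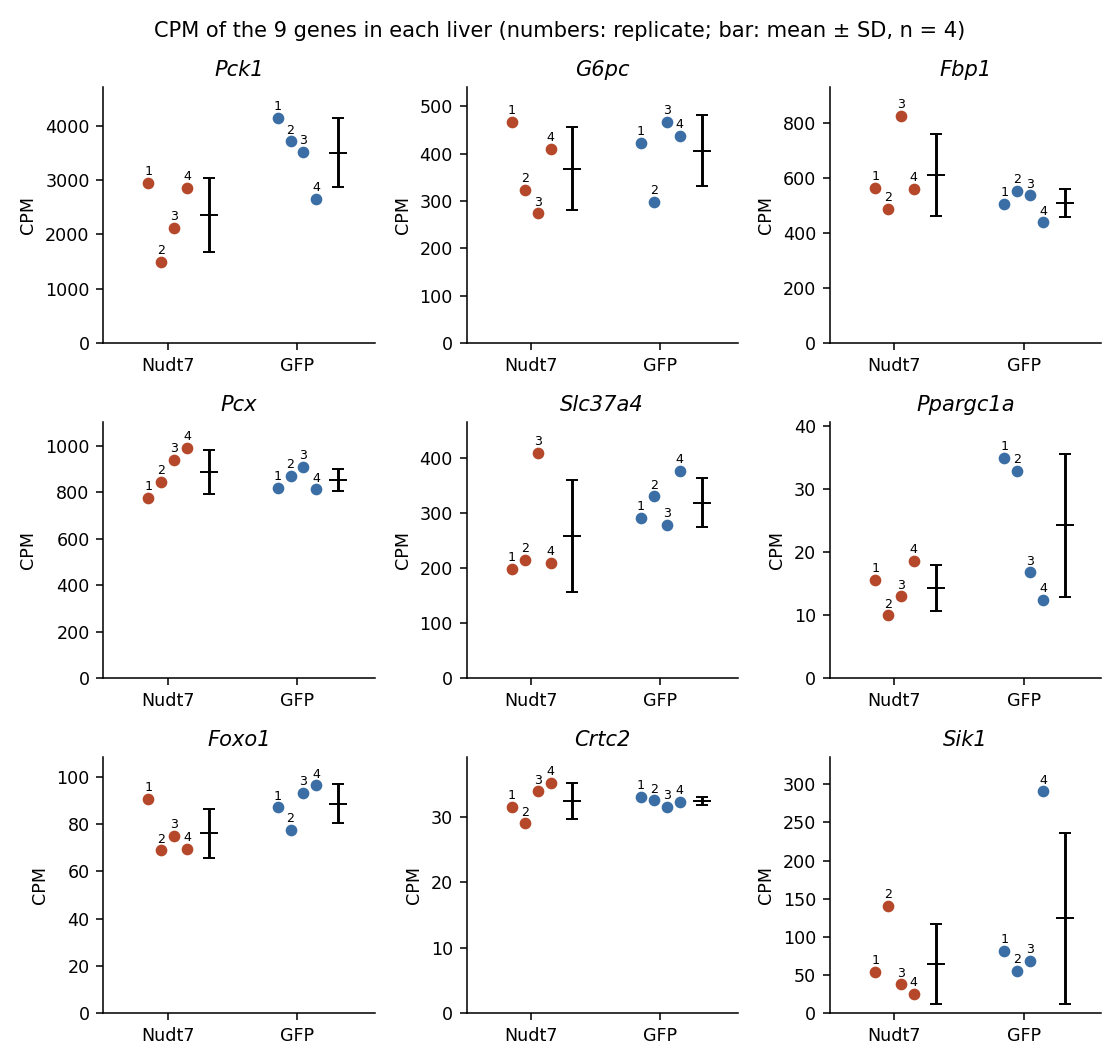
CPM (vertical axis, from 0) of each of the 9 genes in every liver, with Nudt7 livers at the left and GFP livers at the right of each panel. Points carry the replicate number and bars give the mean ± SD (n = 4); the groups share part of their range in all 9 panels, and GFP replicate 4 stands far above the rest for Sik1 (291 CPM).

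The promoters of Pck1, Ppargc1a and G6pc are shown because glucagon and insulin act on these genes through short sites near the start. RefSeq promoters (GRCm38.p6) were matched by symbol for 7 of the 9 genes, all but Crtc2 and Sik1, and only bases upstream of both the RefSeq and the GENCODE start are printed. Capitals mark the cAMP response half-site TGACG, read on either strand (CGTCA), in Pck1 and Ppargc1a, and in G6pc the insulin response sequence CAAAACA, read on either strand (TGTTTTG). The first is on the plus strand at chr2:173152823-173153047, the second on the minus strand at chr5:51567727-51567975 and the third on the plus strand at chr11:101367466-101367560.
Pck1: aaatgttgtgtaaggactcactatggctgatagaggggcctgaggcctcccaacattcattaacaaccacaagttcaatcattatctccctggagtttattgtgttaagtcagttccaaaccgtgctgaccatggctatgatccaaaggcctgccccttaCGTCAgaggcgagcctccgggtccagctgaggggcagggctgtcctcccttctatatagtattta
Ppargc1a: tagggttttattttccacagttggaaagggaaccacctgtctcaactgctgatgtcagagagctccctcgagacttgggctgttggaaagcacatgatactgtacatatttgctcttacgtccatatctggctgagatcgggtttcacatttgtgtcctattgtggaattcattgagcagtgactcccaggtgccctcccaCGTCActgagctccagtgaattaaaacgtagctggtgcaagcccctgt
G6pc: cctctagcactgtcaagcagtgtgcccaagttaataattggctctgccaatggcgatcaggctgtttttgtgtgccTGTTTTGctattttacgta

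The half-site began 90 bases upstream of the RefSeq start of Pck1 and 49 bases upstream of that of Ppargc1a. Slc37a4 also held it, 61 bases upstream of one of its RefSeq starts, but downstream of its GENCODE start. By gene, 3 of the 7 matched genes had it in any of their windows, and Slc37a4 and Pcx have several windows. By window, 17.8% of all 32851 promoter windows of 250 bases had it, so these shares are in unlike units. The insulin response sequence lay 174 bases upstream of the RefSeq start of G6pc and was in 5.56% of all windows. G6pc and Slc37a4 also held the TATA letters TATAAA, downstream of their GENCODE starts and so not printed. These letters were on either strand in 12.4% of all windows. The full cAMP response element TGACGTCA, in which the half-site is contained, and the FOXO letters GTAAACA were in 1.55% and 3.17% of all windows, on either strand, and in 0 of the 7 genes. These are matches of letters within this window only.

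Pck1 (chromosome 2, 173153048 to 173159273, plus strand, GRCm38), the gene of the enzyme often taken to set the pace of the pathway, had the lowest adjusted p of the 9. In Nudt7 replicates 1 to 4 it stood at 2949, 1491, 2115 and 2855 CPM, and in GFP replicates 1 to 4 at 4143, 3707, 3514 and 2647 CPM. The groups overlapped in 1 liver: GFP replicate 4 lay below Nudt7 replicates 1 and 4, and the other GFP livers lay above every Nudt7 liver. The means were 2353 ± 685 CPM in Nudt7 livers, against 3503 ± 628 CPM in GFP livers (SD, n = 4 each), a fold of 0.672 (95% interval 0.476 to 0.947). The log2 fold change was −0.57 (SE 0.23, edgeR unadjusted p = 0.0269, adjusted p = 0.528), and it ran from −0.69 to −0.41 when each liver was left out in turn. With 16884 to 60907 reads per library, counting error is small beside the spread between livers. Its main transcript Pck1-201 held 92.7% of the reads of the gene and stood at 1013 ± 349 TPM in Nudt7 livers, against 1653 ± 375 TPM in GFP livers (SD, n = 4 each).

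G6pc (chromosome 11, 101367561 to 101377903, plus strand), whose product carries out the last step to free glucose, had overlapping groups. Its levels were 468, 323, 274 and 410 CPM in Nudt7 replicates 1 to 4, and 423, 298, 467 and 438 CPM in GFP replicates 1 to 4. The lowest liver was Nudt7 replicate 3 and the highest Nudt7 replicate 1, with the 4 GFP livers in between. The log2 fold change was −0.14 (SE 0.19, 95% interval −0.56 to 0.28, edgeR adjusted p = 0.849) and −0.01 without Nudt7 replicate 3. The interval holds folds from 0.677 to 1.22, so a change within these limits is not told apart from none.

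Slc37a4 (chromosome 9, 44396852 to 44402968, plus strand), the carrier that brings glucose 6-phosphate to that enzyme, gave a different picture on each scale. Its levels were 198, 215, 409 and 210 CPM in Nudt7 replicates 1 to 4, and 290.5, 330, 278 and 376 CPM in GFP replicates 1 to 4. Nudt7 replicate 3 was the highest of all 8 livers, while the other 3 Nudt7 livers lay below all 4 GFP livers. The log2 fold change was −0.31 (SE 0.23, 95% interval −0.80 to 0.19, edgeR adjusted p = 0.714), and without Nudt7 replicate 3 it was −0.61 (SE 0.12, unadjusted p = 0.000267, adjusted p = 0.0752). That adjusted p was the smallest of any of the 9 genes in any of the 16 other settings and fits, and it misses the threshold.

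In TPM, Slc37a4 stood at 166, 177, 240 and 175 in Nudt7 replicates 1 to 4, and at 243, 282, 251 and 292 in GFP replicates 1 to 4. On this scale every Nudt7 liver lay below every GFP liver, with Nudt7 replicate 3 at 240 TPM just under GFP replicate 1 at 243 TPM. Slc37a4 was the only 1 of the 9 with groups that stayed apart in TPM, as did 5.42% of all genes tested. In limma on log2(TPM + 0.5) its log2 fold change was −0.51 (SE 0.14, unadjusted p = 0.00406, adjusted p = 0.349), in a test that called 0.0585% of all genes and 0 of the 9. The median of all genes tested was −0.11 on the TPM scale, so values on that scale are to be read against this shift. Salmon's mean effective length of Slc37a4 was 1723 bases in Nudt7 replicate 3 and 1561 to 1623 bases in the other Nudt7 livers, against 1572 to 1633 bases in GFP livers. Transcript Slc37a4-201 held 93.2% of its reads. The part of transcript length in this result was not tested beyond these values.

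**Figure D2:**
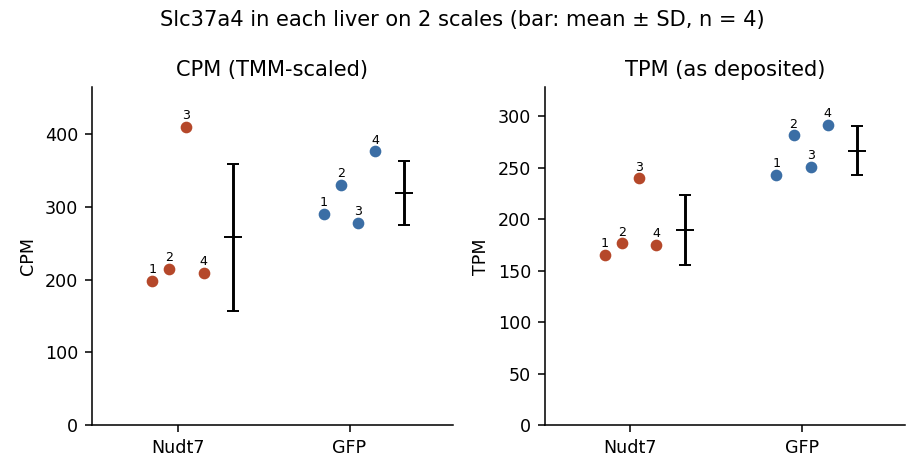
Slc37a4 in every liver in CPM (left panel) and in TPM (right panel), both axes from 0, with Nudt7 livers left of GFP livers, replicate numbers at the points and mean ± SD bars (n = 4). Nudt7 replicate 3 is above all GFP livers in CPM (409) and below all of them in TPM (240).

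Fbp1 and Pcx, the remaining enzyme genes, had overlapping groups. Fbp1 (chromosome 13, 62864753 to 62888282, minus strand) ran from 488 to 828 CPM in Nudt7 livers, with a median of 564, and from 440.0 to 553 CPM in GFP livers, with a median of 522. Its log2 fold change of 0.26 (SE 0.17, 95% interval −0.11 to 0.64, edgeR adjusted p = 0.694) was 0.09 without Nudt7 replicate 3, which held the highest value. The interval of Fbp1 holds folds from 0.924 to 1.56, so a change within these limits is not told apart from none. Pcx (chromosome 19, 4510472 to 4621752, plus strand) ran from 775 to 991 CPM in Nudt7 livers and from 813 to 912 CPM in GFP livers. Its log2 fold change was 0.06 (SE 0.13, 95% interval −0.23 to 0.34, edgeR adjusted p = 0.913), and −0.10 in TPM. A pair of full-length Pcx transcripts held nearly all reads, Pcx-204 with 48.3% and Pcx-202 with 45.2%. Pcx-204 made up 47.1% ± 2.23 of the gene's TPM in Nudt7 livers, against 43.0% ± 4.07 in GFP livers (SD, n = 4 each), with overlapping groups.

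Ppargc1a (chromosome 5, 51454250 to 51567726, minus strand), the coactivator gene, was the lowest of the 9 in level. It stood at 15.6, 9.98, 13.0 and 18.6 CPM in Nudt7 replicates 1 to 4, and at 35.03, 32.9, 16.8 and 12.4 CPM in GFP replicates 1 to 4. GFP replicates 1 and 2 lay well above all other livers, while GFP replicates 3 and 4 lay within the range of the Nudt7 livers. The means were 14.3 ± 3.69 CPM in Nudt7 livers, against 24.3 ± 11.4 CPM in GFP livers (SD, n = 4 each), and the log2 fold change was −0.75 (SE 0.32, 95% interval −1.46 to −0.05, edgeR unadjusted p = 0.0384, adjusted p = 0.581). It ran from −0.96 to −0.51 when each liver was left out in turn. A library held 113 to 506 reads of the gene, so its counting error is larger than that of the enzymes. Transcript Ppargc1a-203, 6464 bases long, held 96.8% of these reads, and its TPM was 3.00 ± 0.936 in Nudt7 livers, against 5.71 ± 2.74 in GFP livers (SD, n = 4 each).

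Foxo1 (chromosome 3, 52268336 to 52353221, plus strand) ran from 68.8 to 90.7 CPM in Nudt7 livers, with a median of 72.2, and from 77.6 to 96.3 CPM in GFP livers, with a median of 90.1. For Foxo1, 3 Nudt7 livers lay below every GFP liver, and Nudt7 replicate 1 lay among them. The log2 fold change was −0.22 (SE 0.13, 95% interval −0.51 to 0.06, edgeR adjusted p = 0.670), and −0.05 with the trend with transcript length removed, Foxo1 having a transcript of 8665 bases. An antisense gene, Gm20402, overlaps 674 bases of Foxo1 exons and had no transcript among those used here. The kit keeps strand, but whether the authors' counting used it is not given in the sources used here, so reads of that gene cannot be told apart from reads of Foxo1.

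Crtc2 (chromosome 3, 90254163 to 90264125, plus strand) was the steadiest of the 9 in CPM, but not in TPM. In TPM it ran from 18.1 (Nudt7 replicate 3) to 31.6 in Nudt7 livers, and from 24.2 to 31.6 in GFP livers. In CPM it ran from 29.0 to 35.2 in Nudt7 livers and from 31.5 to 33.0 in GFP livers. The log2 fold change was 0.00 (SE 0.11, 95% interval −0.23 to 0.24, edgeR adjusted p = 0.996). Its transcripts were less uniform. The full coding transcript Crtc2-201 held 48.5% of the reads, and the rest went to transcripts annotated as retained introns, as targets of decay or as processed transcripts. Crtc2-205, a processed transcript of 2214 bases, made up 17.1%, 22.2%, 19.4% and 16.3% of the TPM of Crtc2 in Nudt7 replicates 1 to 4, and 9.85%, 9.80%, 12.7% and 8.58% in GFP replicates 1 to 4. The share was higher in each of the 4 Nudt7 livers than in any GFP liver. Among 8 transcripts with at least 5% of the reads of a member gene that has several such (5 of Crtc2 and 3 of Pcx), it was the only 1 whose shares stayed apart, against 2.66% of 23587 such transcripts over all genes tested. The share was not tested further, and Crtc2-201 itself, at 21.0%, 21.9%, 46.4% and 20.9% in Nudt7 livers and 27.0% to 34.5% in GFP livers, overlapped in Nudt7 replicate 3 alone. Salmon splits reads among transcripts that share exons, so these shares are estimates.

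Sik1 (chromosome 17, 31844250 to 31855804, minus strand) was the most variable of the 9. It stood at 54.0, 140, 37.8 and 25.3 CPM in Nudt7 replicates 1 to 4, and at 81.3, 55.6, 69.0 and 291 CPM in GFP replicates 1 to 4. A single liver in each group was far above its own group: Nudt7 replicate 2 and GFP replicate 4. The log2 fold change of −0.95 had an SE of 0.68 and a 95% interval of −2.50 to 0.59 (edgeR adjusted p = 0.713). Without GFP replicate 4 it was −0.08 (adjusted p = 0.966), and without Nudt7 replicate 2 it was −1.67 (adjusted p = 0.489). The size of the difference between the groups thus turns on these 2 livers.

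The same livers were at the low end of their groups for Pck1 and Ppargc1a. Nudt7 replicate 2, with the most Sik1 in its group, had the least Pck1 (1491 CPM) and the least Ppargc1a (9.98 CPM) of the Nudt7 livers. In TPM its Pck1 was only just the least (770, against 784 in Nudt7 replicate 3). Its Ppargc1a in TPM (2.65) was not the least, since Nudt7 replicate 3 stood at 2.61. GFP replicate 4, with the most Sik1 in its group, had the least Pck1 (2647 CPM) and the least Ppargc1a (12.4 CPM) of the GFP livers. G6pc did not share this, at 323 CPM in Nudt7 replicate 2, neither the lowest nor the highest of its group, and 438 CPM in GFP replicate 4, above 2 of the other GFP livers. GFP replicate 4 was also the deepest library, with 23640734 reads. The 8 tested genes of the list that cAMP turns on did not share 1 course in these livers. Of the 8, 6 were highest of their group in Nudt7 replicate 2 and 1, Crem, was lowest, while in GFP replicate 4, 4 were highest of their group and 3 (Per1, Crem and Pde4d) were lowest. Fos, Nr4a1 and Nr4a2 were highest in both, and Crem was lowest in both. Fos stood at 4.42 CPM in Nudt7 replicate 2 and 4.61 CPM in GFP replicate 4, and Crem at 12.5 CPM in Nudt7 replicate 2 and 14.04 CPM in GFP replicate 4. This pattern was seen in the values and was not tested.

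**Figure D3:**
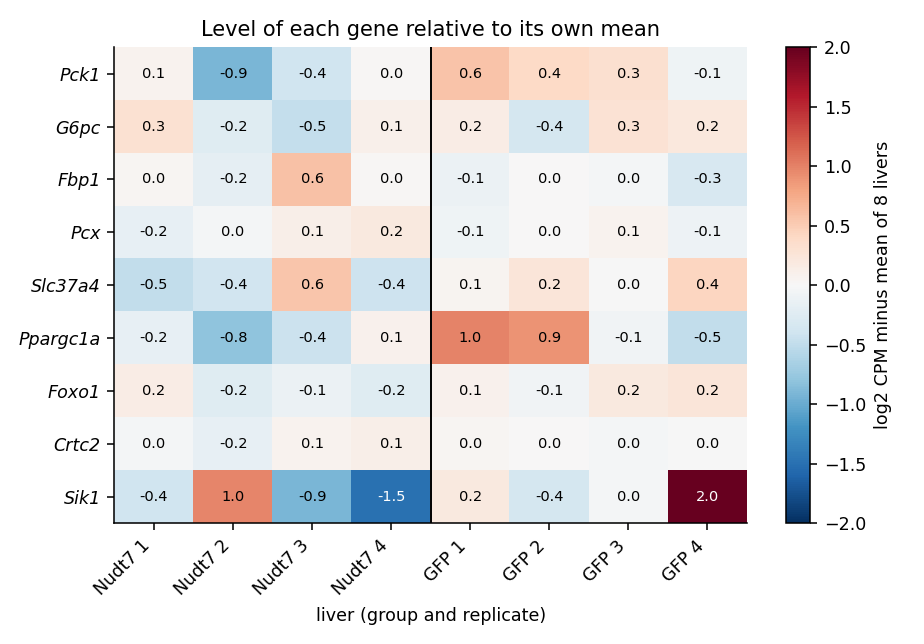
Log2 CPM of each of the 9 genes (rows) in each liver (columns, Nudt7 livers left of the line and GFP livers right of it) minus the gene's mean over the 8 livers; red is above and blue below that mean. Sik1 is high in Nudt7 replicate 2 and GFP replicate 4, the livers where Pck1 and Ppargc1a are lowest within their groups, and Crtc2 stays near its mean throughout.

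The fold changes of the 9 genes on both scales are set side by side in the plot of intervals. On counts, the 95% intervals of Pck1 and Ppargc1a lay below 0 and the other 7 held 0. On log2(TPM + 0.5), those of Pck1 (−1.32 to −0.17) and Slc37a4 (−0.81 to −0.20) lay below 0, and that of Ppargc1a (−1.35 to 0.07) held 0. These intervals are not adjusted for the number of genes. Directions were the same on both scales for 7 genes, while Pcx and Crtc2 had values near 0 of opposite sign.

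**Figure D4:**
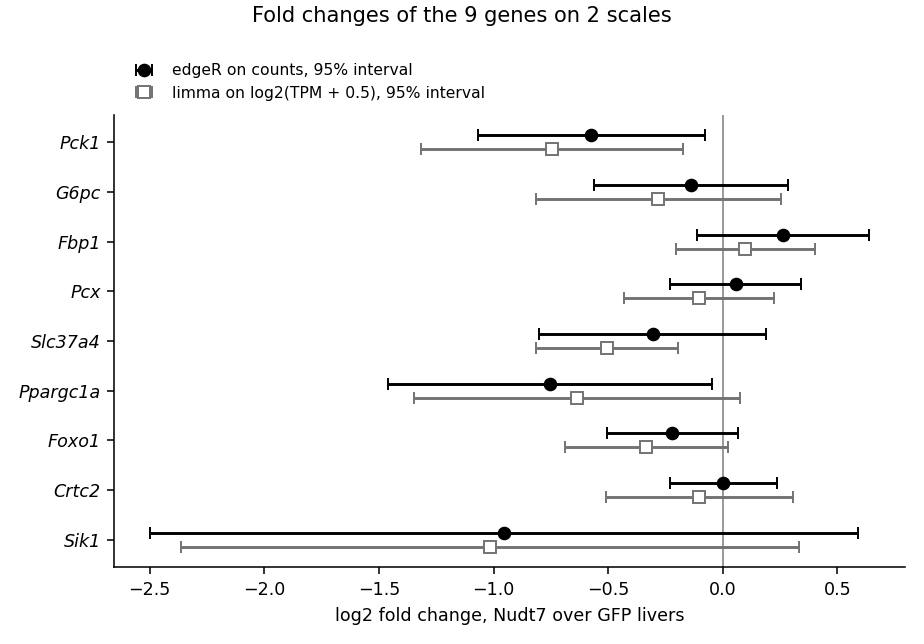
Log2 fold change of Nudt7 over GFP livers (horizontal axis) for each of the 9 genes, from edgeR on counts (filled circles) and from limma on log2(TPM + 0.5) (open squares), with 95% intervals not adjusted for multiple genes. The interval of Sik1 is the widest (−2.50 to 0.59 on counts).

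Other genes of the same pathway were read from lists chosen by their role, with earlier results of these data known. Counts from these lists describe their genes and are no test of a list. The other enzymes of gluconeogenesis, most of which also serve glycolysis, had 13 of 14 genes tested, and 0 were called in either direction. Their median log2 fold change was 0.25 with 10 positive, and 0.06 without Nudt7 replicate 3. Got1, the cytosolic aspartate aminotransferase, moved apart from the rest of its list: its levels were 262, 427, 412 and 378 CPM in Nudt7 replicates 1 to 4 and 600.0, 692, 473 and 863 CPM in GFP replicates 1 to 4. Every Nudt7 liver was below every GFP liver, with a log2 fold change of −0.83 (SE 0.21, edgeR adjusted p = 0.212). Groups stayed apart in CPM for 1 of the 13 genes, Got1, where 5.75% of all genes tested did so. In TPM it was 2 of 13, with G6pc3 added, against 5.42% of all genes tested. On counts G6pc3 had a log2 fold change of −0.10 (edgeR adjusted p = 0.850). DESeq2 called 1 gene of this list lower, where it called 1.19% of all its genes. Tpi1 (0.33, SE 0.19, edgeR adjusted p = 0.667) and Mdh1 (0.28, SE 0.17, adjusted p = 0.684) came next after Got1 by edgeR p. Both rested on Nudt7 replicate 3, at 480 CPM for Tpi1 and 509 CPM for Mdh1. Without that liver their log2 fold changes were 0.09 and 0.08.

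Genes by which lactate, glycerol and amino acids enter the pathway had 14 of 14 tested, with 0 called by edgeR. DESeq2 called 1 of them higher and 1 lower, where it called 1.19% of all its genes. Slc25a10, the mitochondrial dicarboxylate carrier, averaged 175 ± 38.5 CPM in Nudt7 livers, against 108 ± 13.7 CPM in GFP livers (SD, n = 4 each; log2 fold change 0.69, edgeR adjusted p = 0.190). Tat, the tyrosine aminotransferase gene, averaged 1556 ± 449 CPM in Nudt7 livers, against 2800.2 ± 485 CPM in GFP livers (−0.85, edgeR adjusted p = 0.225). Gpd1, a glycerol phosphate dehydrogenase gene, averaged 535 ± 67.9 CPM in Nudt7 livers, against 383 ± 60.7 CPM in GFP livers (0.48, edgeR adjusted p = 0.407). In these 3 and in Gpt2, an alanine aminotransferase gene (−0.34, edgeR adjusted p = 0.561), the CPM of the groups stayed apart, which makes 4 of 14 genes, where 5.75% of all genes tested did so. In TPM it was 3 of 14, against 5.42% of all genes tested, and Gpd1 overlapped. The list as a whole had 7 positive and 7 negative members, with a median of −0.01, and −0.09 without Nudt7 replicate 3.

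The arm from glucagon to CREB had 17 of 17 genes tested, with 0 called and 0 at an unadjusted p under 0.05. The median was −0.05 (0.03 without Nudt7 replicate 3). Sik3, a sister kinase of Sik1, averaged 79.4 ± 13.2 CPM in Nudt7 livers, against 96.8 ± 4.57 CPM in GFP livers (−0.28, edgeR adjusted p = 0.616, and −0.16 without Nudt7 replicate 3), and Gnas, which encodes the G protein subunit that switches on cAMP synthesis, was at 0.25 (SE 0.12, adjusted p = 0.620). Prkaca, a catalytic subunit of the cAMP-dependent kinase, was at 0.19 (SE 0.11, adjusted p = 0.670). Of genes that cAMP turns on, 8 of 9 were tested and 0 were called, with a median of −0.15 (−0.03 without Nudt7 replicate 3). Per1, a clock gene, averaged 43.1 ± 7.89 CPM in Nudt7 livers, against 65.0 ± 17.3 CPM in GFP livers (−0.59, edgeR adjusted p = 0.444). Pde4b, a phosphodiesterase that breaks cAMP down, averaged 7.20 ± 1.80 CPM in Nudt7 livers, against 4.49 ± 0.920 CPM in GFP livers (0.67, adjusted p = 0.444), and Dusp1 was at −0.37 (SE 0.16, adjusted p = 0.593).

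Insulin signalling and the other FOXO genes had 10 of 11 tested, with 0 called and a median of −0.17 (−0.07 without Nudt7 replicate 3). Irs2, an insulin receptor substrate that FOXO factors turn on, averaged 58.3 ± 20.1 CPM in Nudt7 livers, against 97.3 ± 12.4 CPM in GFP livers (−0.74, edgeR adjusted p = 0.370), and Sirt1, a deacetylase of PGC-1α, averaged 13.2 ± 1.46 CPM in Nudt7 livers, against 17.6 ± 1.09 CPM in GFP livers (−0.42, adjusted p = 0.365). Foxo3 was at −0.43 (SE 0.20, adjusted p = 0.600). Of 7 genes that FOXO factors are known to turn on, all tested, 1 was called by edgeR, against 0.117% of all genes tested. This gene, Igfbp1, encodes a secreted binding protein of insulin-like growth factors. The list was chosen with earlier results of these data known, so its counts here and below are no test of FOXO targets as a set. Igfbp1 averaged 267 ± 74.97 CPM in Nudt7 livers, against 1079 ± 401 CPM in GFP livers (SD, n = 4 each; −2.02, edgeR adjusted p = 0.0400). Its adjusted p ran from 0.0143 to 0.162 when each liver was left out, and it passed in 1 of these 8 fits, the one without GFP replicate 3. Sesn1 was at −1.22 (SE 0.35, edgeR adjusted p = 0.349). Its groups overlapped narrowly in CPM, with Nudt7 replicate 3 at 14.74 and GFP replicate 3 at 14.55. In TPM they stayed apart, at 3.74 to 7.61 in Nudt7 livers, against 8.57 to 26.8 in GFP livers. Bcl6, a transcriptional repressor gene, had the opposite sign, with 32.2 ± 15.4 CPM in Nudt7 livers, against 18.4 ± 6.33 CPM in GFP livers (SD, n = 4 each; 0.82, SE 0.33, edgeR adjusted p = 0.559) and overlapping groups. The groups stayed apart in CPM for 2 of the 7 genes (Igfbp1 and Irs2), where 5.75% of all genes tested did so. In TPM it was 3 of 7, with Sesn1 added, against 5.42% of all genes tested. The list had 2 positive and 5 negative members, with a median of −0.41, and −0.23 without Nudt7 replicate 3, and Foxo1 itself had the values given above.

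Other regulators had 13 of 13 tested, with 0 called and a median of −0.10 (−0.065 without Nudt7 replicate 3). Hnf4a, a nuclear receptor needed for Pck1 and G6pc expression, averaged 667 ± 46.5 CPM in Nudt7 livers, against 901 ± 125 CPM in GFP livers (−0.43, edgeR adjusted p = 0.422), and its groups stayed apart. Pprc1, a relative of Ppargc1a, was at −0.40 (SE 0.17, adjusted p = 0.581), and Cebpb at −0.26 (SE 0.16, adjusted p = 0.684). DESeq2 and limma-voom each called 0 genes of the glucagon, cAMP-induced, insulin and other regulator lists. Each called 1 gene, lower, of the FOXO-induced list. Over all genes, DESeq2 called 1.19%, and limma-voom called 4 genes higher and 4 lower.

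**Figure D5:**
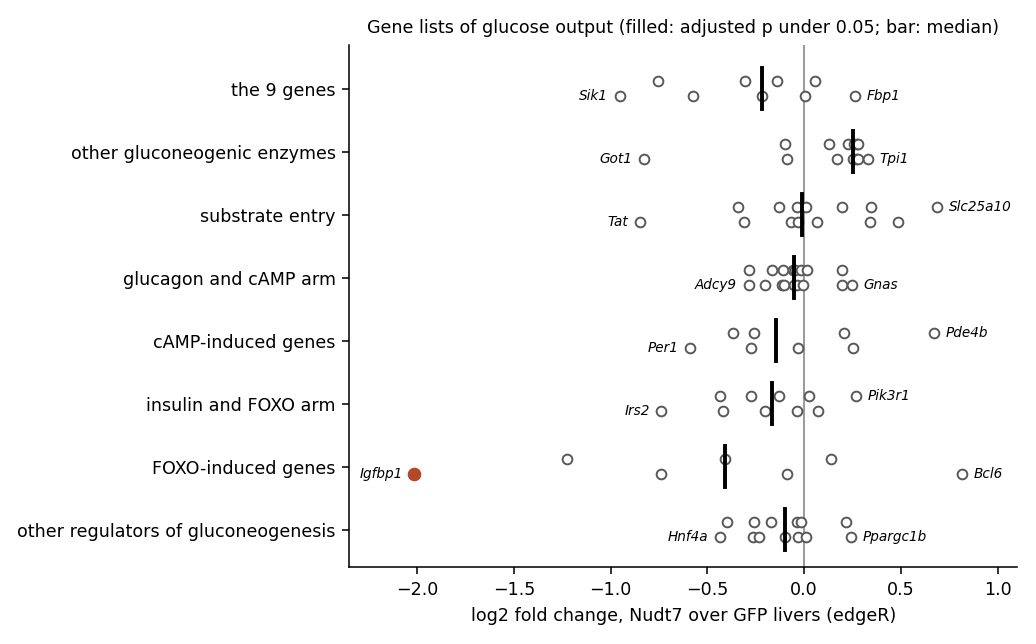
Log2 fold change of Nudt7 over GFP livers (horizontal axis, edgeR) of every tested gene of the 9 described here and of 7 lists of related genes (rows), with the median as a vertical bar and the outermost genes named. Igfbp1 at −2.02 is the only filled point, the 1 gene with an adjusted p under 0.05.

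Gluconeogenic enzymes are made mostly by hepatocytes near the portal vein, and markers of liver zones were measured beside them. The 8 periportal markers summed to 10874 to 13652 CPM in Nudt7 livers, against 14084 to 17794 CPM in GFP livers, and the groups did not overlap. Cps1, of the urea cycle, held most of that sum (5716 to 8505 CPM in Nudt7 livers, against 7743 to 12326 CPM in GFP livers). Taken singly, 0 of the 8 had CPM groups that stayed apart, where 5.75% of all genes tested did so. Of the 8, 5 had negative fold changes, 0 were called, and the median was −0.13. The 9 pericentral markers summed to 6767 to 9645 CPM in Nudt7 livers, against 7028 to 7442 CPM in GFP livers, with 8 positive and a median of 0.34. Of these, 0 were called by edgeR and 1 was called higher by DESeq2, which called 1.19% of all its genes. Of other cells, 5 cholangiocyte markers summed to 31.6 to 42.5 CPM in Nudt7 livers, against 17.3 to 29.4 CPM in GFP livers, without overlap, with 0 called by edgeR and 1 called higher by DESeq2. Kupffer cell markers (99.2 to 229 CPM in Nudt7 livers, 107 to 178 CPM in GFP livers), stellate cell markers (203 to 233 CPM in Nudt7 livers, 196 to 237 CPM in GFP livers) and lymphocyte markers (6.51 to 14.4 CPM in Nudt7 livers, 6.65 to 12.3 CPM in GFP livers) overlapped, while sinusoidal endothelial markers summed to 299 to 336 CPM in Nudt7 livers, against 339 to 359 CPM in GFP livers. Taken singly, 0 of 6 sinusoidal endothelial markers and 1 of 5 cholangiocyte markers had CPM groups that stayed apart. Markers of adipocytes and pancreas were at 4.997 to 6.18 CPM in Nudt7 livers, against 4.01 to 5.11 CPM in GFP livers. The part of these in the levels of the 9 genes was not tested, and in bulk liver fewer cells of a kind and less RNA per cell cannot be told apart.

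Genes whose course over the 8 livers was most like that of a member were found among 7696 genes of at least 10 CPM, by the root mean square difference of log2 CPM centred over the 8 livers. For Pck1, whose own root mean square spread was 0.45 log2 units, they were N4bp2l1 (difference 0.14), Thap2 (0.17) and Lurap1l (0.19). N4bp2l1 stood at 37.0, 24.4, 29.8 and 34.1 CPM in Nudt7 replicates 1 to 4 and 53.2, 48.3, 49.0 and 40.5 CPM in GFP replicates 1 to 4, with the lowest liver of each group the same as for Pck1. For G6pc (spread 0.29) they included Dock9 and Ccdc93 (0.13 each). For Ppargc1a (spread 0.60) they were Abtb2 (0.28), Mcc (0.29) and Egfr (0.32), all highest in GFP replicate 2. Abtb2 and Egfr, like Ppargc1a, had their 2 highest livers in GFP replicates 1 and 2, while Mcc had Nudt7 replicate 4 (153 CPM) just above GFP replicate 1 (151 CPM). For Sik1 (spread 1.03) the nearest genes were farther off, Pdk4 (0.58), Map3k6 (0.63) and Nrg4 (0.64). Pdk4, the pyruvate dehydrogenase kinase of fasting, was highest in Nudt7 replicate 2 of its group (229 CPM) and in GFP replicate 4 of its group (218 CPM), as Sik1 was. All these genes were picked for their course over these same 8 livers. Highest or lowest livers shared with a member are thus largely built into the choice and are no separate observation.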

How the data were processed

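Liver RNA of 8 mice was sequenced from a stranded mRNA kit (500 ng of RNA, 9 cycles of PCR, per the labels' protocols). FastQC, Salmon, DESeq2 and GRCm38 are named in the submitters' processing notes. The sources used here do not give Salmon's version, index or options. Per the file headers, the deposited files give estimated counts and TPM per transcript and the EffectiveLength in bases. Of 109282 transcripts, 107987 (98.8%) got a gene from GENCODE M21 by identifier; the others, with 0.552% to 1.06% of reads, were dropped. The deposited estimated counts were then added up over each gene's transcripts and rounded, and TPM was added up likewise.

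The main test was edgeR 4.0.16 (quasi-likelihood, robust, TMM, filterByExpr), two-sided, with Benjamini-Hochberg adjustment over 13678 genes and a threshold of 0.05; intervals are at 95%. DESeq2 1.42.0 and limma 3.58.1 (voom, and on log2(TPM + 0.5)) were alternatives, with other scalings, no filter, length corrections and each liver left out. The procedures were tested on simulated data. Reads made by PCR are not independent molecules, so depth bounds counting error only. Named were the 9 genes, Nudt7 as a check of the labels, transcripts with at least 5% of a gene's reads, the 3 genes of each list with the smallest p, and the 3 genes nearest in course; Gpt2, Bcl6, Fos, Crem and other cAMP-induced genes, Cps1 and the zone markers were added after their values were seen or as markers. Some genes that the rule names are not reported here. Members and lists were chosen with earlier results of these data known.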

Additional observations from a re-analysis of the deposited data

Results flagged for a closer look

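In 18 groups of 4 livers, 9 genes in 2 groups, a liver lay farther from its nearest neighbour than Dixon's 95% critical value for 4 samples in 2, where chance gives about 0.9 (1 in 20 groups). Slc37a4 in Nudt7 livers had Nudt7 replicate 3 at 409 CPM, with 0.921 of the range between it and the next liver. Sik1 in GFP livers had GFP replicate 4 at 291 CPM, with 0.891 of the range between it and the next liver. These ratios were taken on CPM and can differ on a log scale, on which they were not tested. Values without each of these livers stand beside the results.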

How the results depend on the processing

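Over 16 alternatives, 0 of the 9 genes passed the threshold in any, and of 144 values of a gene under an alternative, 138 kept their direction. The 6 that did not were near 0: Pcx at −0.10 in TPM, and Crtc2 at −0.10 in TPM, −0.00018 with no filter, −0.027 with the length trend removed, −0.0060 without Nudt7 replicate 3 and −0.039 without Nudt7 replicate 4. Over all 8 fits with a liver left out Crtc2 ran from −0.039 to 0.053. The count of the 9 genes at an unadjusted p under 0.05 was 1 in limma-voom, with no filter and with the length trend removed, and 0 to 2 when livers were left out. Their median was −0.13 with the length trend removed, −0.33 in TPM (median of all genes −0.11), and −0.27 to −0.087 when livers were left out. Over all genes, edgeR called 6 higher and 10 lower. Higher calls numbered 88 in DESeq2, 15 with no filter, 17 with the length trend removed, 3 in TPM and 1 to 8 when livers were left out. Lower calls numbered 64 in DESeq2, 4 in limma-voom, 6 with upper-quartile scaling, 6 with an effective-length offset, 5 in TPM and 1 to 12 when livers were left out. The limma test on TPM over all genes was chosen after seeing the data. The cause of these shifts was not tested. Depth limits Ppargc1a most. No paired analysis was possible because the animals carry numbers that no other animal shares.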
